A study of Homo sapiens with 16 samples.

Results

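The genes described here are 10 genes that mark stages of thymocyte development or rearrange antigen receptor genes: RAG1, RAG2, DNTT, CD1A, CD1B, CD1E, CD4, CD8A, CD8B and CD34. They were found as the probe sets whose platform annotation gives exactly 1 gene symbol equal to 1 of these names. This gave all 10 genes of 19775 and 18 probe sets of 41097. The rule itself uses names only. Of the 18 probe sets, 14 passed the filter on low values described below and 4 were dim. RAG2, CD1A, CD1B, CD8A and CD34 had 1 probe set each, RAG1, CD1E and CD4 had 2, DNTT had 3 and CD8B had 4. Where a gene had several, its brightest probe set over the 16 arrays stood for it, and all 10 genes were tested in this way.

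Transcripts were measured on 16 Affymetrix arrays. The lines CEM, CUTL1, DND41 and Jurkat are of human T-cell lymphoblastic malignancy. They were exposed for 15 h to DMSO, the solvent, or to 1 uM PD-0332991 (palbociclib), which inhibits the cyclin-dependent kinases CDK4 and CDK6. There were 8 groups of 2 arrays. All groups shared 1 serum-containing medium, and the labels give neither a genotype nor a stage of arrest for any line, so none is assigned here. Nothing in the labels says that arrays of a group are separate cultures, so each p-value reflects the spread between arrays alone, which may be technical, and precision is limited by having 2 arrays a group.

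RAG1 and RAG2 together form the recombinase that cuts antigen receptor genes at recombination signals, and DNTT encodes terminal transferase, which adds bases without a template to the cut ends before they are joined. In the human thymus CD34 marks the most immature cells, the lipid-presenting CD1 molecules mark cortical thymocytes, and cells of that stage carry both coreceptors, CD4 and the CD8 dimer of CD8A and CD8B. Expression of the recombinase normally ends once a receptor has been selected, and in T-cell leukaemia the same genes are used to place blasts along this pathway.

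RAG1 and RAG2 lie next to each other on chromosome 11, CD8A and CD8B lie next to each other on chromosome 2, and CD1A, CD1B and CD1E lie in 1 cluster on chromosome 1. DNTT is on chromosome 10, CD4 on chromosome 12 and CD34 on chromosome 1. Promoter windows of 250 bases before an annotated start were taken from RefSeq (assembly GRCh38.p14), which matched 7 of the 10 genes with 11 windows and held none for CD1B, CD4 and CD8B. The windows of RAG1, RAG2 and DNTT are shown because these genes had the 3 largest average differences between treatments. Each is written 5′ to 3′ along the gene, and capitals mark a match to a motif searched.
RAG1, chr11:36510103-36510352, plus strand: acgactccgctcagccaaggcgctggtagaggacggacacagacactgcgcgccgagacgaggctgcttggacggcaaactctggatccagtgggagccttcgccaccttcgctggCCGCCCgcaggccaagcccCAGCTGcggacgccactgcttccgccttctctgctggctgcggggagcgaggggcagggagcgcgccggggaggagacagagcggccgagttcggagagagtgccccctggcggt
RAG2, chr11:36598237-36598486, minus strand: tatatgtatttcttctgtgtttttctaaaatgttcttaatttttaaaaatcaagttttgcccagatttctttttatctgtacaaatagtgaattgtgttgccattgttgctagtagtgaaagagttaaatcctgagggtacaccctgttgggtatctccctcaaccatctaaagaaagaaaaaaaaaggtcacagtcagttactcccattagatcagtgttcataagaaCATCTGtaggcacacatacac
DNTT, chr10:96304184-96304433, plus strand: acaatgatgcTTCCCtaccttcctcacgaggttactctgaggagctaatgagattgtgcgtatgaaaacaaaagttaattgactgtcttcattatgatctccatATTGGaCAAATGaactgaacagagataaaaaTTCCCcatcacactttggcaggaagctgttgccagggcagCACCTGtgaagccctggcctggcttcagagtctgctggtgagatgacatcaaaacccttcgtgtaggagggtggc

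The motifs were searched on both strands. They were the E-box CANNTG, the CCAAT box CCAAT, the Ikaros core GGGAA, the RUNX core TGTGGT, the FOXO core GTAAACA, the E2F core TTTCGCGC and the GC box GGGCGG. Each of the 3 windows held an E-box: CAGCTG ending 110 bases upstream of the RAG1 start, CATCTG ending 16 bases upstream of the RAG2 start, and CAAATG and CACCTG ending 135 and 70 bases upstream of the DNTT start. An E-box was found in 61.8% of 35116 windows of this length, so its presence does not set these promoters apart. The RAG1 window also held a GC box on the other strand (42.6% of windows). The DNTT window held a CCAAT box on the other strand, which lies beside its first E-box without overlapping it (32.0% of windows), and 2 Ikaros cores on the other strand (59.0% of windows). The letters of the RUNX core (11.0% of windows), the FOXO core (2.98%) and the E2F core (0.439%) were not in these 3 windows. A match is a description of the letters and not of binding.

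Values are log2 of the deposited intensity. Genes entered the test if any line had a 4-array mean of 4.88 or more, which is the overall median of the deposited data, and 13483 genes did. A level below 4.88 as the mean of a line is called dim here, and a difference in a dim line is not treated as measured. This left out 3 of 40 combinations of gene and line: RAG2 in Jurkat, CD8A in DND41 and CD8A in Jurkat. Changes are differences of PD-0332991 minus DMSO, tested with limma and adjusted by the Benjamini-Hochberg method over all genes tested. A change is called at an adjusted p under 0.05.

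Over the average of the 4 lines 8 of the 10 genes rose, none fell, and CD8A and CD34 did not pass the test. In the same comparison 46.6% of all genes tested were called, 26.7% higher and 20.0% lower. The median difference was 0.37 over the 10 genes and 0.035 over all genes tested. The largest rises were those of the V(D)J machinery, RAG1, RAG2 and DNTT, followed by CD4 and the CD1 genes. By line, 7 of the genes rose in CEM, where 28.1% of all genes were called, 16.5% higher and 11.6% lower. In CUTL1 6 rose, against 27.2% called, 14.6% higher and 12.7% lower. In DND41 5 rose, against 28.2% called, 11.1% higher and 17.1% lower, and in Jurkat 5 were called higher, 1 of them the dim CD8A, against 27.0% called, 15.6% higher and 11.4% lower. With all arrays in the fit, none of the 10 genes was called lower in any line; CD8B was called lower in DND41 when PD-0332991 replicate 2 of that line was left out (-0.40, limma adjusted p = 0.0215, against -0.22 with it).

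**Figure D1:**
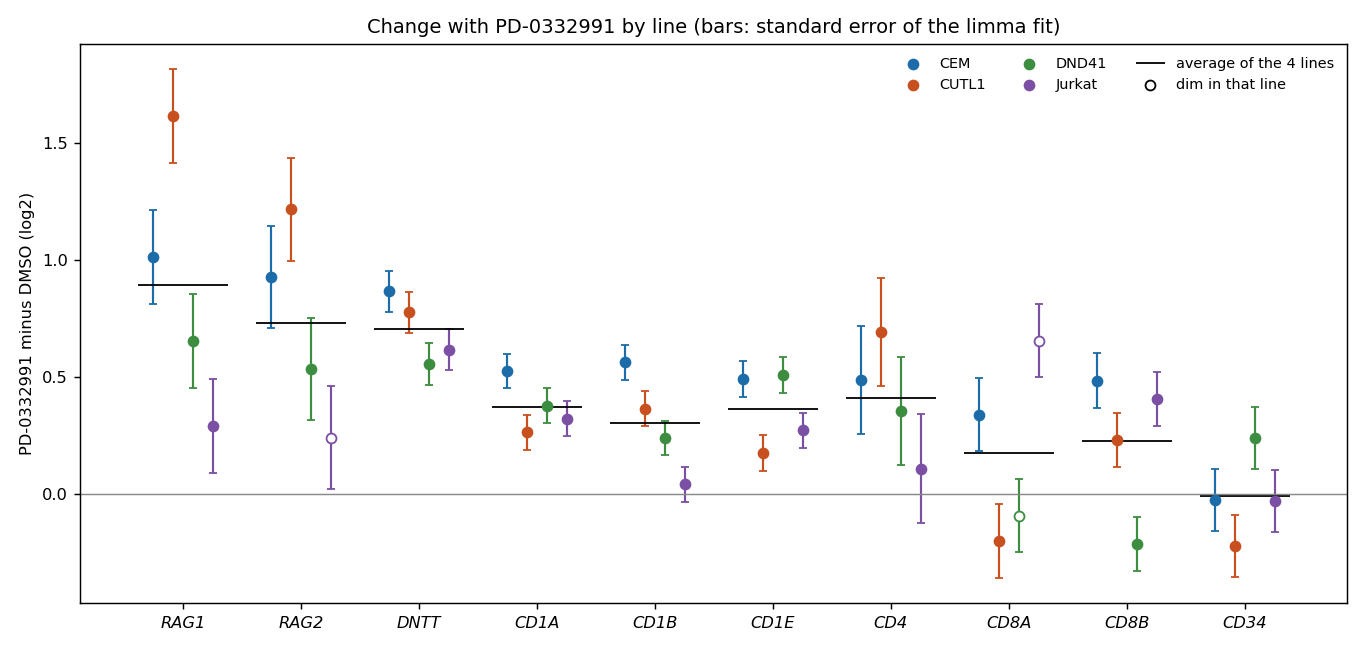
Change of each of the 10 genes with PD-0332991 (log2 difference from DMSO, vertical axis) in CEM, CUTL1, DND41 and Jurkat, with bars for the standard error of the limma fit, a black line for the average of the lines and open points for dim combinations. RAG1 spans 0.29 in Jurkat to 1.62 in CUTL1, DNTT lies between 0.56 and 0.87 in all 4 lines, and CD34 lies around 0.

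RAG1, the subunit that holds the catalytic site of the recombinase, read 10.40 and 10.47 with DMSO and 11.61 and 11.29 with PD-0332991 in CEM. In CUTL1 it read 6.10 and 6.89 with DMSO and 8.21 and 8.02 with PD-0332991. In DND41 the readings were 11.16 and 11.10 against 11.90 and 11.67, and in Jurkat 4.80 and 4.86 against 5.04 and 5.20. Both PD-0332991 arrays lay above both DMSO arrays in each line, while the Jurkat DMSO arrays lay below the level of dim genes. The average difference was 0.89 (SE 0.10, 1.86-fold, limma adjusted p = 1.78e-05). RAG1 rose by 1.01 in CEM (SE 0.20, adjusted p = 0.00309), by 1.62 in CUTL1 (3.07-fold, adjusted p = 0.000108) and by 0.65 in DND41 (adjusted p = 0.0312). In Jurkat the difference of 0.29 was not called (adjusted p = 0.332). In bulk RNA, fewer cells of a type and less RNA per cell cannot be told apart, and this holds for every level and difference here.

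The RAG1 difference in CUTL1 was the 2nd highest of the 13483 genes tested in that line. The call in DND41 was lost without either DMSO array of that line or its PD-0332991 replicate 1 (adjusted p between 0.0951 and 0.17). The other RAG1 probe set was dim in all lines, and with the mean of both probe sets as the value of the gene the average difference was 0.55.

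RAG2, the partner subunit that binds RAG1 and reads a mark of active chromatin, read 7.30 and 6.97 with DMSO and 8.23 and 7.90 with PD-0332991 in CEM. In CUTL1 it read 6.84 and 7.06 against 8.22 and 8.11, and in DND41 8.48 and 8.37 against 8.74 and 9.18. In Jurkat, where the gene was dim, it read 4.20 and 4.93 against 4.79 and 4.82. The treated arrays lay above the DMSO arrays in CEM, CUTL1 and DND41 and between them in Jurkat. The average difference was 0.73 (SE 0.11, 1.66-fold, limma adjusted p = 0.000181). RAG2 rose by 0.93 in CEM (SE 0.22, adjusted p = 0.00865) and by 1.22 in CUTL1 (2.33-fold, adjusted p = 0.00158), and the difference of 0.53 in DND41 was not called (adjusted p = 0.0914). The call in CEM was lost without DMSO replicate 2 (adjusted p = 0.0753) or PD-0332991 replicate 1 (adjusted p = 0.0777), and RAG2 was called in DND41 without either Jurkat DMSO array (adjusted p = 0.0331).

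DNTT, the template-independent polymerase, read 11.47 and 11.39 with DMSO and 12.30 and 12.29 with PD-0332991 in CEM. In CUTL1 it read 6.27 and 6.48 against 7.21 and 7.09, in DND41 12.36 and 12.29 against 12.84 and 12.92, and in Jurkat 10.62 and 10.44 against 11.17 and 11.12. No treated array overlapped with the DMSO arrays of its line. The average difference was 0.70 (SE 0.044, 1.63-fold, limma adjusted p = 1.24e-07). DNTT rose by 0.87 in CEM (SE 0.088, adjusted p = 3.38e-05), by 0.78 in CUTL1 (adjusted p = 5.18e-05), by 0.56 in DND41 (adjusted p = 0.000901) and by 0.62 in Jurkat (adjusted p = 0.000361). The test of a difference between the 4 lines gave an adjusted p of 0.231. DNTT and CD1A were the only 2 of the 10 genes called in every line.

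The other DNTT probe sets moved the same way in the average. In a fit over all 24893 probe sets that passed the filter, the next brightest had an average difference of 0.65 and was called in all 4 lines. The weakest had an average difference of 0.48 (limma adjusted p = 0.003) and was called in CEM alone of the single lines. In this fit 11 of the 14 probe sets of the 10 genes were called in the average, all of them higher, against 41.1% of all probe sets called and 21.9% called higher.

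**Figure D2:**
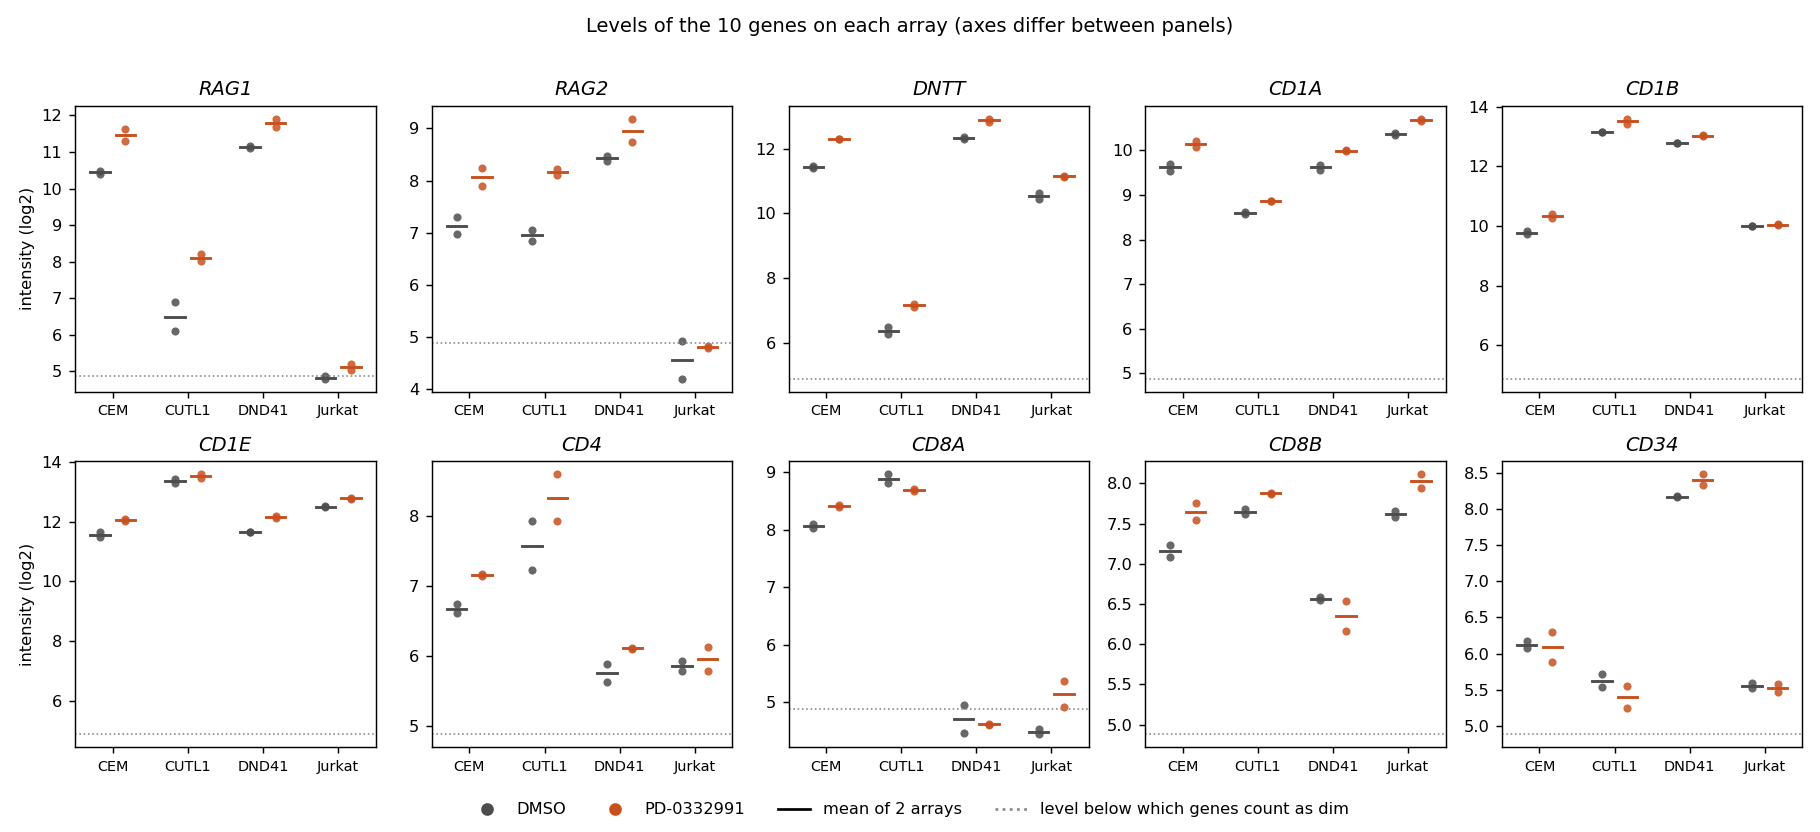
Level of each of the 10 genes on every array (log2 intensity, vertical axis, with its own range in each panel) by line, with DMSO in grey and PD-0332991 in orange, a bar for the mean of 2 arrays and a dotted line at the level below which genes count as dim. RAG1, DNTT, CD1A, CD1B and CD1E have both treated arrays above both DMSO arrays in all 4 lines, and RAG1 and RAG2 are near or below the dotted line in Jurkat.

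Of the CD1 genes, CD1A rose in all lines. It read 9.69 and 9.55 with DMSO and 10.22 and 10.07 with PD-0332991 in CEM, 8.58 and 8.61 against 8.86 and 8.86 in CUTL1, 9.56 and 9.67 against 10.01 and 9.98 in DND41, and 10.34 and 10.39 against 10.67 and 10.71 in Jurkat. The groups did not overlap in any line, and the differences were smaller than those of the recombinase in the average. CD1A rose by 0.37 in the average (SE 0.037, 1.29-fold, limma adjusted p = 7.24e-06), by 0.53 in CEM (adjusted p = 0.000373), 0.26 in CUTL1 (adjusted p = 0.0216), 0.38 in DND41 (adjusted p = 0.00362) and 0.32 in Jurkat (adjusted p = 0.00805). The call in CUTL1 was lost when any 1 of the 4 CUTL1 arrays was left out (adjusted p between 0.0549 and 0.0944), and that in Jurkat without PD-0332991 replicate 2 (adjusted p = 0.0627).

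CD1B read 9.73 and 9.82 with DMSO and 10.41 and 10.26 with PD-0332991 in CEM, and 13.15 and 13.13 against 13.42 and 13.58 in CUTL1. It read 12.79 on both DMSO arrays of DND41 against 13.05 and 13.01, and 9.99 and 10.00 against 10.05 and 10.02 in Jurkat. The treated arrays were above the DMSO arrays throughout, by the least in Jurkat. CD1B rose by 0.30 in the average (SE 0.037, limma adjusted p = 3.81e-05), by 0.56 in CEM (adjusted p = 0.000226), 0.36 in CUTL1 (adjusted p = 0.0035) and 0.24 in DND41 (adjusted p = 0.0333), and the difference of 0.040 in Jurkat was not called (adjusted p = 0.755). The DND41 call was lost without any 1 of the arrays of that line (adjusted p between 0.0579 and 0.133).

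CD1E, whose product acts inside the cell in lipid loading, read 11.48 and 11.64 with DMSO and 12.08 and 12.02 with PD-0332991 in CEM. It read 13.42 and 13.29 against 13.58 and 13.47 in CUTL1, 11.66 and 11.65 against 12.13 and 12.20 in DND41, and 12.49 and 12.52 against 12.75 and 12.80 in Jurkat. The groups were closest in CUTL1, where the level was highest. CD1E rose by 0.36 in the average (SE 0.038, limma adjusted p = 1.06e-05), by 0.49 in CEM (adjusted p = 0.000649), 0.51 in DND41 (adjusted p = 0.000621) and 0.27 in Jurkat (adjusted p = 0.0211), and the difference of 0.17 in CUTL1 was not called (adjusted p = 0.119). The Jurkat call was lost without any 1 of the Jurkat arrays (adjusted p between 0.0551 and 0.121). The second CD1E probe set had an average difference of 0.38 (limma adjusted p = 0.000207) and was called in CEM and DND41. It was not called in CUTL1 (0.34, adjusted p = 0.0535) or Jurkat (0.22, adjusted p = 0.212). With the mean of both probe sets as the value of the gene, CD1E was called in CUTL1 (0.26, adjusted p = 0.022).

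CD4, the coreceptor for MHC class II, read 6.74 and 6.61 with DMSO and 7.14 and 7.18 with PD-0332991 in CEM, and 7.22 and 7.92 against 7.93 and 8.60 in CUTL1. In DND41 it read 5.63 and 5.88 against 6.10 and 6.12, and in Jurkat 5.78 and 5.93 against 5.79 and 6.14. The CUTL1 replicates stood about as far apart as the treatments, and the groups overlapped in Jurkat. CD4 rose by 0.41 in the average (SE 0.12, limma adjusted p = 0.0121), while CUTL1 was the only line with a call (0.69, SE 0.23, adjusted p = 0.0462). That call was lost without any 1 array of the other lines (adjusted p between 0.0514 and 0.0599), without CUTL1 DMSO replicate 1 (0.34, adjusted p = 0.359) and without CUTL1 PD-0332991 replicate 2 (0.36, adjusted p = 0.356). The differences of 0.49 in CEM (adjusted p = 0.149), 0.35 in DND41 (adjusted p = 0.279) and 0.11 in Jurkat (adjusted p = 0.791) were not called. The second CD4 probe set was dim, and with the mean of both as the value of the gene the average difference was 0.21.

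CD8A, the chain of the CD8 dimer that binds the kinase LCK, read 8.11 and 8.04 with DMSO and 8.40 and 8.42 with PD-0332991 in CEM, and 8.96 and 8.82 against 8.71 and 8.67 in CUTL1. In DND41 it read 4.96 and 4.46 against 4.61 and 4.62, and in Jurkat 4.54 and 4.45 against 4.92 and 5.37, with both lines dim. The treated arrays were higher in CEM and lower in CUTL1, without overlap in either. The average difference of 0.17 was not called (SE 0.078, limma adjusted p = 0.0923), nor were those of 0.34 in CEM (adjusted p = 0.137) and -0.20 in CUTL1 (adjusted p = 0.394). The average was called without DND41 DMSO replicate 1 (adjusted p = 0.0129) or without Jurkat PD-0332991 replicate 1 (adjusted p = 0.0207). The Jurkat difference of 0.66 had an adjusted p of 0.00922, on levels that are dim in that line.

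CD8B, the other chain of the dimer, gave different answers by probe set. The brightest probe set, which stood for the gene, read 7.24 and 7.09 with DMSO and 7.75 and 7.54 with PD-0332991 in CEM, and 7.69 and 7.61 against 7.89 and 7.87 in CUTL1. It read 6.58 and 6.55 against 6.17 and 6.54 in DND41, and 7.66 and 7.58 against 7.94 and 8.11 in Jurkat. The treated arrays were the higher ones in all lines but DND41, where they were the lower ones. Its average difference was 0.23 (SE 0.058, limma adjusted p = 0.00746), and it rose in CEM (0.48, adjusted p = 0.00986) and in Jurkat (0.41, adjusted p = 0.024). The CEM call was lost without DMSO replicate 2 (adjusted p = 0.0776) or PD-0332991 replicate 1 (adjusted p = 0.0931), and the Jurkat call without either DMSO array or PD-0332991 replicate 2 (adjusted p between 0.0649 and 0.17).

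The second CD8B probe set read 9.50 and 9.41 with DMSO and 9.16 and 9.20 with PD-0332991 in CUTL1, and between 4.73 and 5.48 on the 12 arrays of the other lines. CUTL1 thus stood above the other lines on this probe set, whereas on the brightest probe set CUTL1 and Jurkat had like levels. Its average difference was -0.044 (limma adjusted p = 0.7), and no line was called. With the mean of all CD8B probe sets as the value of the gene, the average call was lost (0.072, adjusted p = 0.211). A near-identical gene, CD8B2, is in the RefSeq table and has no probe set named for it here, so CD8B values are uncertain.

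**Figure D3:**
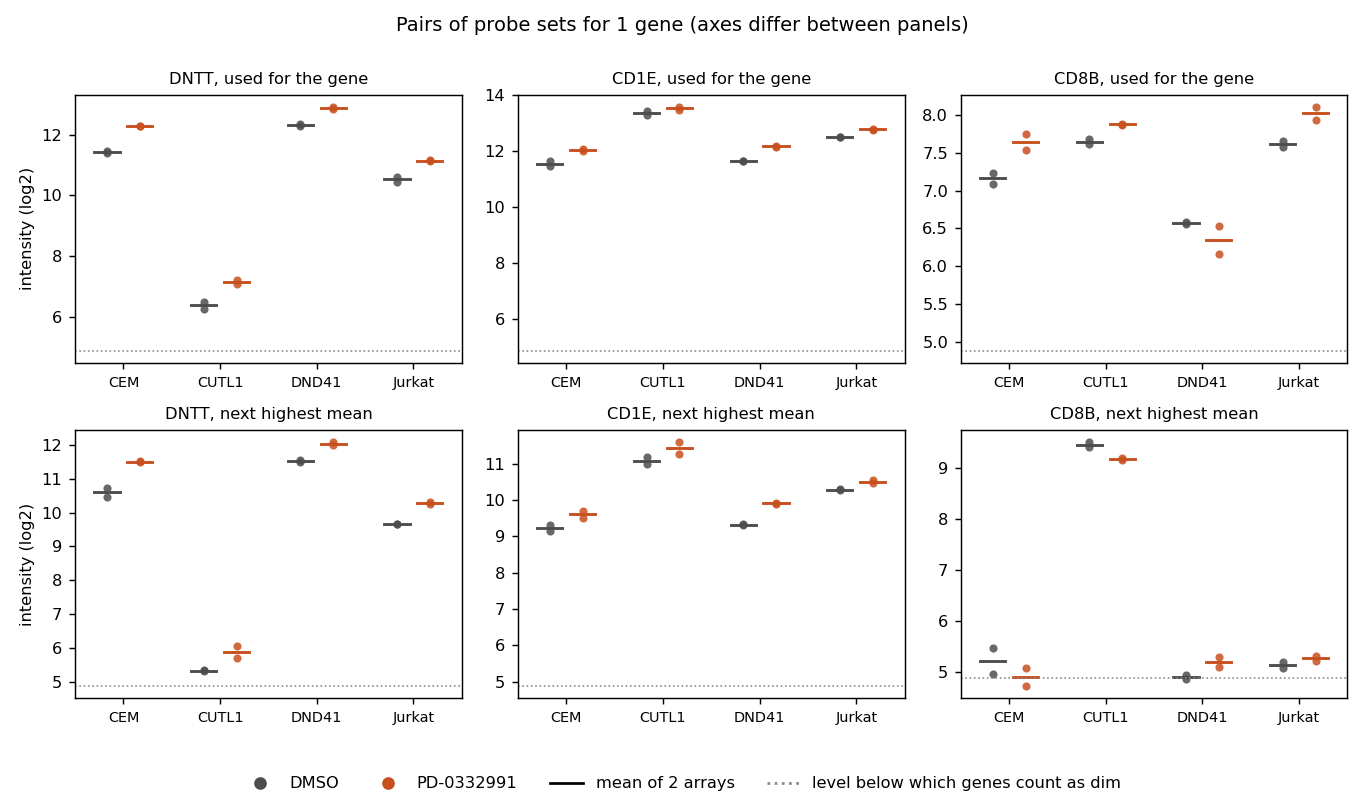
Pairs of probe sets of DNTT, CD1E and CD8B on every array (log2 intensity, with its own range in each panel) by line, the probe set used for the gene above and the next one below, in grey for DMSO and orange for PD-0332991, with bars for means of 2 arrays and a dotted line at the level of dim genes. The DNTT and CD1E pairs order the lines alike, while CD8B stands between 4.73 and 5.48 outside CUTL1 in the lower panel and between 6.17 and 8.11 in the upper one.

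CD34, a sialomucin of progenitor cells, read 8.18 and 8.17 with DMSO and 8.48 and 8.34 with PD-0332991 in DND41. In the other lines its readings lay between 5.25 and 6.30. Treated and DMSO arrays overlapped in CEM, CUTL1 and Jurkat. The average difference was -0.012 (SE 0.066, limma adjusted p = 0.902), with 0.24 in DND41 (adjusted p = 0.208) and -0.22 in CUTL1 (adjusted p = 0.253) as the values farthest from 0. CD34 was the only one of the 10 genes whose average difference lay below 0.

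Treated arrays lay above both DMSO arrays for 9 of the 10 genes in CEM, against 35.3% of all genes tested. The counts were 8 in CUTL1 (37.5% of all genes), 8 in DND41 (31.7%) and 7 in Jurkat (38.6%), the last with the dim CD8A among them. In all 4 lines at once this held for 5 genes, RAG1, DNTT, CD1A, CD1B and CD1E, against 10.7% of all genes. The fitted difference was above 0 in all 4 lines for 7 genes, the same 5 with RAG2, whose Jurkat value is dim, and CD4, against 22.5% of all genes.

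Whether the lines differed in their change was tested with an F test on the differences between the 4 line effects. It called 3 of the 10 genes, RAG1 (limma adjusted p = 0.0402), CD1B (adjusted p = 0.0334) and CD8B (adjusted p = 0.0482), against 12.6% of all genes. In single comparisons RAG1 rose by 1.33 more in CUTL1 than in Jurkat (adjusted p = 0.0329, 2.55% of all genes called), and CD1B by 0.52 more in CEM than in Jurkat (adjusted p = 0.0272, 1.97% called). The CD8B difference was 0.70 higher in CEM than in DND41 (adjusted p = 0.03, 9.31% called), and -0.62 in DND41 minus Jurkat (adjusted p = 0.0402, 9.52% called). These were the 4 calls in 60 single comparisons; none was made between CEM and CUTL1 (5.14% of all genes called) or between CUTL1 and DND41 (7.15%). The 3 F tests lay close to the threshold, and with 1 array left out the adjusted p reached 0.11 for RAG1, 0.0927 for CD1B and 0.144 for CD8B; in a fit over all probe sets none of the 3 was called (0.0518, 0.0533 and 0.0652).

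For the other genes the lines were not shown to differ in their change, which does not show that they changed alike. The adjusted p of the limma F test was 0.137 for RAG2, 0.231 for DNTT, 0.28 for CD1A, 0.098 for CD1E, 0.538 for CD4, 0.0582 for CD8A and 0.318 for CD34.

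In DMSO all 10 genes differed between the lines by the limma F test, against 71.2% of all genes tested. A gene that passed the filter through a line where it is high had to differ, so this count supports nothing further. Of the 60 pairs of lines, 53 were called, and the share of all genes called in the same pairs was 43.4% for CEM and CUTL1, 45.7% for CEM and DND41, 48.1% for CEM and Jurkat, 44.1% for CUTL1 and DND41, 49.5% for CUTL1 and Jurkat and 46.9% for DND41 and Jurkat. The order of the lines was not the same for all genes. DND41 was highest for RAG1, RAG2, DNTT and CD34, CUTL1 for CD1B, CD1E, CD4, CD8A and CD8B, and Jurkat for CD1A.

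For RAG1 the DMSO means were 11.13 in DND41, 10.44 in CEM, 6.50 in CUTL1 and 4.83 in Jurkat, and all neighbours in this order differed. RAG2 stood at 8.42 in DND41, 7.14 in CEM, 6.95 in CUTL1 and 4.57 in Jurkat, and CEM and CUTL1 did not differ beyond their spread (limma adjusted p = 0.528). CEM was thus far above CUTL1 in RAG1 and level with it in RAG2. DNTT was 12.33 in DND41, 11.43 in CEM, 10.53 in Jurkat and 6.37 in CUTL1, with all neighbours apart. Jurkat, the lowest line for the recombinase genes, stood above CUTL1 for DNTT, with a difference of -4.16 for CUTL1 minus Jurkat.

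The CD1 genes ordered the lines in 3 different ways. CD1A was 10.37 in Jurkat, 9.62 in CEM and in DND41, which did not differ, and 8.60 in CUTL1. CD1B was 13.14 in CUTL1, 12.79 in DND41, 10.00 in Jurkat and 9.77 in CEM, with all neighbours apart. CD1E was 13.36 in CUTL1, 12.51 in Jurkat, 11.66 in DND41 and 11.56 in CEM, the last pair not differing (limma adjusted p = 0.312). CUTL1 was therefore the lowest line for CD1A and the highest for CD1B and CD1E.

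Among the coreceptors, CD4 was 7.57 in CUTL1, 6.68 in CEM, 5.85 in Jurkat and 5.75 in DND41, and the last pair did not differ beyond its spread (limma adjusted p = 0.755). CD8A was 8.89 in CUTL1 and 8.07 in CEM, and dim in DND41 (4.71) and Jurkat (4.49), which did not differ (adjusted p = 0.278). CD8B on its brightest probe set was 7.65 in CUTL1 and 7.62 in Jurkat, which did not differ (adjusted p = 0.861), 7.16 in CEM and 6.57 in DND41. CD34 was 8.18 in DND41, 6.12 in CEM, 5.62 in CUTL1 and 5.55 in Jurkat, and the last pair did not differ (adjusted p = 0.719). CUTL1 and CEM were thus the highest lines for both CD4 and CD8A, and DND41 was the highest for CD34 as for RAG1, RAG2 and DNTT.

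The genes most like RAG1 over the 16 arrays, which form 4 lines and so cluster by line, were EPSTI1, ZNF426 and SMPD3, each with a Pearson r of 0.98. RAG1 had an r of 0.87 with RAG2 and 0.54 with DNTT. RAG2 was most like SLC8A1-AS1, IFI44 and OTUB1 (r of 0.97 each). DNTT was most like TRIM22 and SMAGP (r of 0.99 each) and SC5D (0.98). These values describe levels across 4 lines and the treatments together, and carry no test.

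Genes listed for the joining step of V(D)J recombination did not move with the recombinase as a group. Of 15 listed genes tested, 5 rose and 8 fell in the average, where 26.7% of all genes were called higher and 20.0% lower. The median difference was -0.17 against 0.035 over all genes. HMGB1, HMGB2, KPNA1 and DCAF1 on this list are not end joining genes, and HMGB1 (-0.23), HMGB2 and KPNA1 (-0.17) were among the falls. The count and the median are therefore not those of end joining alone. The falls with the smallest p were those of PAXX, a Ku-binding joining factor (-0.76, limma adjusted p = 1.97e-08), HMGB2, a DNA-bending cofactor of the recombinase (-0.46, adjusted p = 7.16e-06), and XRCC4, the partner of ligase IV (-0.44, adjusted p = 8.2e-06). LIG4, the ligase itself, rose (0.63, adjusted p = 8.25e-05) and differed between lines (limma F adjusted p = 0.0191), from 1.09 in CEM to -0.19 in DND41. HMGB2 also differed between lines (adjusted p = 0.0435), from -0.10 in CEM to -0.70 in Jurkat. The other genes that rose were POLM, POLL, ATM and TP53BP1.

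Of 26 transcription factors tested that are known to act on the recombinase, terminal transferase or coreceptor genes, 11 rose and 7 fell (26.7% and 20.0% of all genes), with a median of 0.11 against 0.035 over all genes. GATA3 rose by 0.37 (limma adjusted p = 2.66e-06) and NFATC1 by 0.28 (adjusted p = 4.34e-05), while ID1, an inhibitor of E-box-binding proteins, was lower by a difference of -0.45 (adjusted p = 4.08e-05). The lines differed most in EGR1, an immediate early factor (limma F adjusted p = 0.000619), with -1.0035 in DND41 and 1.48 in Jurkat. They also differed in ID2, another E protein inhibitor (adjusted p = 0.00494), with -1.06 in CUTL1. The same held for ID1 (limma F adjusted p = 0.0107), which ran from -0.74 in CUTL1 to 0.16 in DND41. IKZF3 differed as well (limma F adjusted p = 0.0277), with 0.43 in CUTL1 and -0.41 in Jurkat.

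T-cell receptor chain genes rose in 6 of 7 tested, against 26.7% of all genes, with none lower and a median of 0.24. CD247, the zeta chain, rose by 0.47 (limma adjusted p = 1.39e-06), CD3E by 0.35 (adjusted p = 0.000155) and TRBC1 by 0.19 (adjusted p = 0.000251). PTCRA, the partner of the beta chain in the pre-T-cell receptor, rose by 0.24 and differed between lines (limma F adjusted p = 0.0363), with 0.49 in CUTL1 and 0.029 in DND41. CD3G, at 0.027, was not called.

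Of 22 other genes that change along thymocyte stages, 18 rose and 2 fell (26.7% and 20.0% of all genes), with a median of 0.37, the same to 2 decimals as that of the 10 genes. CD52, a surface glycoprotein, rose by 0.57 (limma adjusted p = 2.04e-07), S1PR1, a receptor used in thymic exit, by 0.56 (adjusted p = 2.12e-06) and AQP3, a water and glycerol channel, by 0.51 (adjusted p = 3.65e-06). The genes that fell were the chemokine receptors CCR7 (-0.30, adjusted p = 0.00689) and CXCR4 (-0.26, adjusted p = 0.0021). CCR7 and AQP3 differed most between lines (limma F adjusted p = 0.00395 and 0.00453). The CCR7 difference was -0.80 in CUTL1 and -0.98 in DND41, but 0.14 in CEM and 0.43 in Jurkat. That of AQP3 ran from 0.85 in CEM to -0.067 in DND41. Among the 7 progenitor genes tested, 2 rose, a share near the 26.7% of all genes called higher, and none fell, with a median of 0.073. These were ERG (0.26, adjusted p = 0.0104) and MEF2C (0.19, adjusted p = 0.00991), both dim in CUTL1 and Jurkat. HHEX, at 0.087, was not called. The limma F test of a difference between lines gave 0.0216 for HHEX and 0.0241 for KIT, but HHEX was dim in CUTL1 and KIT in every line but Jurkat, so these differences were not measured in all lines. The medians of all 5 lists kept their sign under every setting tried.

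**Figure D4:**
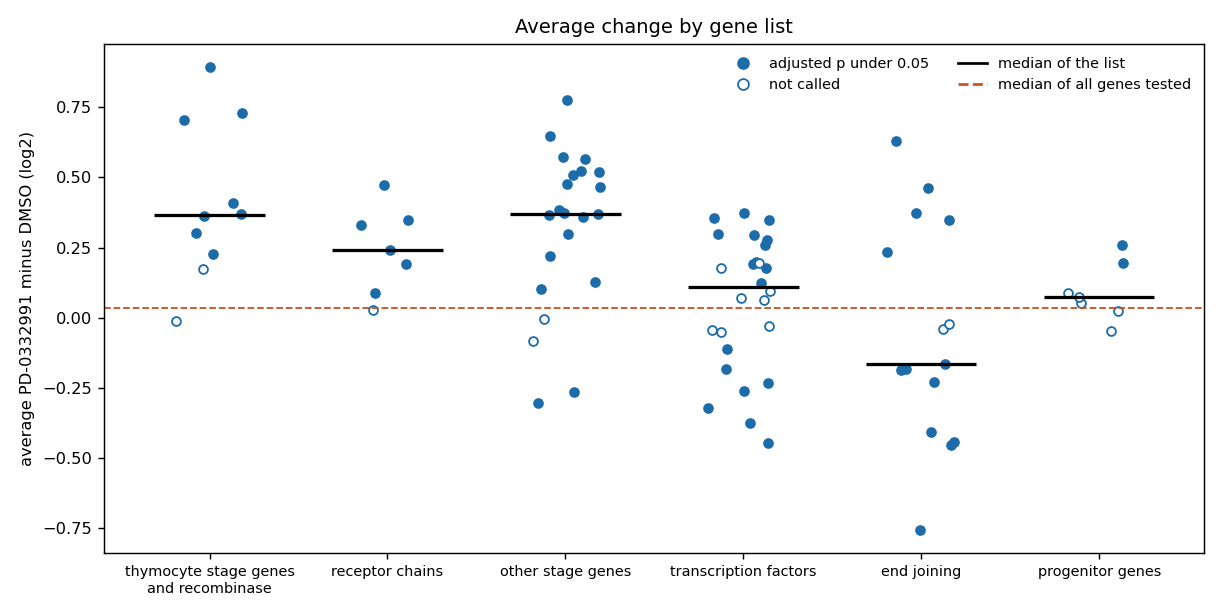
Average change with PD-0332991 (log2 difference, vertical axis) of each gene tested in 6 lists, filled where the limma adjusted p was under 0.05, with a black bar at the median of the list and a dashed line at the median of all genes. The medians are 0.37 for the 10 genes and for the other stage genes, 0.24 for receptor chains and 0.11 for transcription factors. They are -0.17 for the end joining list, which includes HMGB1, HMGB2, KPNA1 and DCAF1, and 0.073 for progenitor genes.

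Replicate arrays correlated at r of 0.993 to 0.998 across genes. All 8 T-lineage markers used to check the label were tested. In the average 7 of them were called higher with PD-0332991, against 26.7% of all genes. The rise of T-cell genes was thus not limited to the 10 genes. All of these markers but LCK are also on the lists above, so they are not separate support. The summed level of the T-lineage markers ran from 14.57 to 15.16 with DMSO and from 14.79 to 15.35 with PD-0332991. Among markers of other cells, 1 of 3 tested B-cell markers (CD79A, 0.25) and 1 of 3 cytotoxic markers (PRF1, 0.24) were called higher. So were 1 of 5 stromal or epithelial markers (PECAM1, 0.35) and CD1C, which thymocytes also express. Of all genes 26.7% were called higher, and shares of 1 in 3 and 1 in 5 are near that. These counts are of changes with PD-0332991 and not of presence, and some of these markers were dim in no line. Line means of CD79A ran from 7.54 in CUTL1 to 10.63 in DND41, and those of NKG7 from 7.72 in CEM to 8.80 in CUTL1. Those of PECAM1 ran from 5.74 in CUTL1 to 10.57 in Jurkat. CD14, LYZ, MPO, FCGR3B and S100A8 were dim in all lines, as were MS4A1 and PAX5. The myeloid marker CSF1R was dim in no line, with line means of 5.25 to 5.31, and was not called. Line means of CD79B ran from 5.31 in CUTL1 to 7.65 in CEM, and those of BLK from 4.67 in CUTL1 to 8.46 in DND41. No erythroid or megakaryocyte marker of 3 tested was called. The probe sets for 18S ribosomal RNA were lower on treated arrays in CUTL1 (12.80 and 12.67 against 13.28 and 13.17) and DND41 (12.45 and 12.75 against 13.21 and 13.26), and overlapped in CEM and Jurkat. With the 18S level as a covariate the average differences of RAG1, RAG2 and DNTT were 0.84, 0.80 and 0.74, all called, whereas some calls were lost, with differences of the same sign. CD4 was 0.36 in the average (limma adjusted p = 0.0771) and 0.57 in CUTL1 (0.249), and in DND41 RAG1 was 0.48 (0.342) and CD1B 0.18 (0.34). The actin 3′ minus 5′ log2 value, a measure of RNA integrity, was higher on treated arrays in CEM (0.92 and 0.87 against 0.51 and 0.73) and Jurkat (0.86 and 0.93 against 0.74 and 0.84), lower in DND41 (0.59 and 0.73 against 1.00 and 1.01) and overlapped in CUTL1, and its part in the results was not tested. In DND41 the split of all called genes was 1495 higher and 2305 lower as deposited, 899 and 2882 after centring arrays on their medians, 2155 and 1759 after quantile normalization and 1898 and 1839 after cyclic loess.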

How the data were processed

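The authors deposited 1 linear intensity for each probe set, between 4.42 and 26097, made with RMA per the submitters' processing notes (version not given in the sources used here). Per the labels' protocols, 5 ng of total RNA was amplified and biotin-labelled. Array medians ran from 28.5 to 31.2. The planned design had assumed log2 values, so log2 was taken first, without a pseudocount or further scaling. Of 54675 probe sets, only the 41097 with 1 gene symbol in the platform annotation were used (1801 had several, 11777 none); 41043 of them have a gene identifier in the RefSeq table.

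The limma 3.58.1 model (R 4.3.3) had a mean for each of the 8 groups, 8 residual and 3.32 prior degrees of freedom, two-sided tests and a check on simulated data. The filter left 6292 genes out as dim. Tables and promoter searches were made with pandas 2.3.3 in Python 3.11.15, and figures with matplotlib 3.10.9. The genes and lists were chosen with earlier results of these data known. The text names all 10 genes with their probe sets, per list the 3 genes with the smallest p in the average and the 2 in the difference between lines, marker genes that were called, and the 3 genes most like RAG1, RAG2 and DNTT. CD8B2 and list genes named beyond this were chosen after their values were seen. Alternatives covered scaling, the choice of probe set, the filter, the prior, a replicate block, single arrays left out, each line as 1 replicate and, added after seeing the data, the 18S level as a covariate.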

Additional observations from a re-analysis of the deposited data

Results flagged for a closer look

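The change with PD-0332991 differed between the lines for 3 of the 10 genes by the limma F test, against 12.6% of all genes. The adjusted p was 0.0402 for RAG1, 0.0334 for CD1B and 0.0482 for CD8B. All 3 calls were lost without the filter on dim genes and in the fit over all probe sets. Of the single comparisons of lines, the RAG1 change was 1.33 higher on the log2 scale in CUTL1 than in Jurkat, where RAG1 stood close to the level of dim genes. The CD1B change was 0.52 higher in CEM than in Jurkat. The CD8B change was 0.70 higher in CEM than in DND41, and the difference of DND41 minus Jurkat was -0.62; the second CD8B probe set was not called in any line.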

How the results depend on the processing

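The count of genes called in the average stayed between 6 and 9 over all settings, of 10 genes tested in all settings but 1. Without probe sets that may match several transcripts 8 genes were tested and 7 called, and CD8B and CD34 had no test. RAG1, RAG2, DNTT, CD1A and CD1E were called in the average in each setting. CD8B lost its average call with the mean of all probe sets (adjusted p = 0.211) and with each line as 1 replicate (0.264), CD1B in the latter (0.0797) and CD4 with the 18S covariate (0.0771). The 3 genes called in the difference between lines became 0 without the filter on dim genes and with the 18S covariate, 5 with an intensity trend in the prior, and 0 to 3 with single arrays left out. In DND41 the 5 calls became 3 with arrays centred and with the 18S covariate, and 3 to 6 with single arrays left out: 3 without either DMSO array or PD-0332991 replicate 1. In Jurkat the 5 calls became 1 to 5: 3 without either DMSO array and 1 without PD-0332991 replicate 2. The other lists had 59 calls among 77 genes tested, against 46.6% of all genes called. Without probe sets that may match several transcripts they had 34 calls of 52 tested, as fewer genes were tested. Of all 10575 genes tested in that setting, 2687 were called higher and 1890 lower.

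Some differences turned their sign, none of them called with all arrays in the fit or where the sign turned. CD34 in CEM became 0.0017 with arrays centred and 0.0347 with the 18S covariate. With the mean of all probe sets CD8B became -0.0284 in CUTL1 and 0.0732 in DND41, and CD4 in Jurkat -0.065. With single arrays left out CD34 ran from -0.0637 to 0.039 in the average, from -0.2351 to 0.1759 in CEM and from -0.0831 to 0.0199 in Jurkat, and CD4 from -0.0662 to 0.2806 in Jurkat. Apart from what the construction of a setting shows, the cause was not tested.

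Same-numbered arrays of a line deviated together only weakly (correlations of 0.076, 0.195, -0.108 and 0.105 in CEM, CUTL1, DND41 and Jurkat). The labels give these arrays only a shared number, so whether they were prepared together is not known. With the replicate block, 0 genes were called in the difference between lines, against 3, and 8, 6, 4 and 5 in CEM, CUTL1, DND41 and Jurkat, with 8 in the average; CD4 was then called in CEM (adjusted p = 0.00906) and DND41 (0.0298). Levels near the dim level, as for RAG1 and RAG2 in Jurkat, limit what a difference there can show.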
